A study of Mus musculus with 6 samples.

Results

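Glycolysis and hypoxia response genes were examined as a set of 34 transcripts, in E14 mouse embryonic stem cells in which p/CIP was lowered by siRNA. The members are 14 glycolytic enzymes, 17 other targets of the hypoxia-inducible factors (HIF) and 3 HIF subunits, matched by gene symbol to the array's probe annotation. A row that carries the symbol alone was found for 31 of the 34, out of 19938 genes in all, and the brightest such row stood for each gene. Every measured row was tested without a filter on low values. Eno1 and Gpi1 had 0 rows and were not analysed here. Gapdh was found only on 25 rows that also carry the symbols of other genes, so none of them was named.

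The study used 6 expression arrays hybridised with Cy3-labelled total RNA, 2 for each of 3 groups. Control cells received a pool of non-specific siRNAs, and the other groups received siRNA 1 or siRNA 2 against p/CIP, the nuclear receptor coactivator encoded by Ncoa3. All groups were the same cell line grown on adherent plates and all were transfected, and neither the time after transfection nor the oxygen level of the culture was stated in the sources used here. Whether replicates came from separate cultures is not in the labels, so the spread behind each p-value is that between arrays and may be technical. Values are log2 levels. The design compares control cells with cells in which p/CIP was lowered, here for each siRNA and for both together.

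Cells break glucose down to pyruvate by glycolysis, and convert pyruvate to lactate or pass it to the mitochondria. When oxygen is short, HIF-1 alpha or HIF-2 alpha (Hif1a, Epas1) escapes the prolyl hydroxylases that mark it for destruction, pairs with HIF-1 beta (Arnt), and switches on glucose transporters, glycolytic enzymes, angiogenic factors and mitophagy genes. Naive mouse embryonic stem cells are known for using both glycolysis and respiration, and for a shift toward glycolysis as they become primed.

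The target gene checked the labels of control against p/CIP siRNA: Ncoa3 stood at 12.33 and 12.28 in control cells, against 10.71 and 10.93 under siRNA 1 and 10.71 and 10.92 under siRNA 2 (2.81-fold lower for both, limma adjusted p = 0.0287). Being alike under both siRNAs, Ncoa3 cannot check which arrays were siRNA 1 or siRNA 2, nor the replicate numbers. Arrays correlated at 0.991 to 0.998 across genes. The array of siRNA 1 replicate 2 stood apart, with an interquartile range of 3.13 against 3.33 to 3.45 on the others. Of the genes up to the 25th percentile of level, 20.6% read lower on it than on replicate 1, against 43.3% and 34.3% for replicate 2 of control and siRNA 2; above the 75th percentile the shares were 64.5%, 69.2% and 56.4%. All 10 markers of pluripotent cells lay above the median gene level of 7.81, at 10.56 to 13.68, and their mean was 12.51 to 12.60 on the control arrays and 12.29 to 12.43 on the p/CIP siRNA arrays. For markers of extraembryonic endoderm the mean was 7.59 and 7.92 on the control arrays and 7.72 to 8.22 on the siRNA arrays. The mean was 9.54 and 9.64 against 9.56 to 9.87 for trophoblast, 7.61 and 7.81 against 7.50 to 7.94 for fibroblasts, and 8.36 and 8.37 against 8.23 to 8.33 for neural markers. Of these other markers, 5 of 8 for extraembryonic endoderm, 7 of 8 for trophoblast, 4 of 8 for fibroblasts and 4 of 5 neural lay above the median gene level. Lying above that level therefore does not set the pluripotent markers apart. Their part in the results below was not tested, and in such bulk samples fewer cells of a type and less RNA per cell cannot be told apart.

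With both siRNAs against control, none of the 31 measured members passed limma's test at an adjusted p under 0.05, the smallest adjusted p being 0.186. Of all 19938 genes, 0.0702% were called lower and 0% higher. The glycolytic enzymes as a group lay close to control, with a median log2 change of -0.04 over 11 measured enzymes, 6 below and 5 above. Without Hk1, whose row is uncertain as described below, the median was -0.01 over 10 enzymes, 5 below and 5 above. The other HIF targets had a median of -0.04, with 10 of 17 below control (all members 18 of 31, all genes 47.7%). The HIF subunits had a median of -0.04, while the median of all genes was 0.01. For some single members the siRNA arrays nevertheless did not overlap the controls. The arrays of both siRNAs were lower than both control arrays for 4 members, Vegfa, Pfkp, Kdm3a and Slc2a3, an order seen for 10.1% of all genes. The margin was narrow for Pfkp (10.68 with siRNA 2 against 10.69 in control cells), Kdm3a (10.48 against 10.50) and Slc2a3 (13.28 against 13.30). The siRNA arrays were higher for 3 members, Pfkm, Ddit4 and Adm, against 8.83% of all genes. Neither count stands far from that of the array as a whole. At an unadjusted p under 0.05 there were 5 members, against 8.72% of all genes.

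The 3 phosphofructokinase genes, whose enzyme commits sugar to glycolysis, lay on different sides of control. Pfkm, the muscle-type subunit, stood at 10.00 and 9.87 in control cells, at 10.37 and 10.30 under siRNA 1, and at 10.36 and 10.33 with siRNA 2. All 4 siRNA arrays were above both controls and close to each other. The log2 difference was 0.40 (1.32-fold, standard error 0.0733, 95% interval 0.23 to 0.57), with a limma adjusted p of 0.186, and 0.0632 with the replicate number as a block. Pfkp, the platelet-type subunit, stood at 10.90 and 10.69 in control cells, at 10.42 and 10.47 under siRNA 1, and at 10.68 and 10.51 with siRNA 2. Its lower values did not overlap the controls, although the siRNA 2 array at 10.68 lay just under the control at 10.69 (log2 difference -0.27, standard error 0.09, adjusted p = 0.467). Pfkl, the liver-type subunit, read 11.37 and 11.35, then 11.36 and 11.29, then 11.67 and 11.51, so only the siRNA 2 arrays lay above the controls (0.10 for both siRNAs, standard error 0.0772, limma adjusted p = 0.737; 0.23 with siRNA 2, standard error 0.0891, limma adjusted p = 0.893).

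Of the remaining enzymes, Aldoa, Ldha, Pgk1, Pgam1, Tpi1 and Hk2 had differences near 0 for both siRNAs together. Pkm, which makes pyruvate, is described with the difference between the siRNAs. Aldoa, the aldolase that splits the 6-carbon sugar, read between 13.33 and 13.39 on all 6 arrays. Ldha, which makes lactate, read between 13.44 and 13.62, with a log2 difference of -0.06 for both siRNAs (95% interval -0.24 to 0.12). Pgk1 and Pgam1, which act in the payoff steps, differed from control by 0.07 (95% interval -0.12 to 0.26) and 0.02 (-0.14 to 0.19). Tpi1, the triose phosphate isomerase, differed by -0.04 (-0.23 to 0.15), and Hk2, a hexokinase that traps glucose in the cell, by -0.06 (-0.24 to 0.13). These intervals leave room for changes of up to 0.26 on the log2 scale, and a p that misses the threshold does not show that the genes did not differ. The 25 rows that carry Gapdh together with other symbols differed from control by -0.14 to -0.09.

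Hk1, the housekeeping hexokinase, rests on an uncertain row. Its brightest row, at 13.34 and 13.09 on the controls and 13.00 to 13.20 on the siRNA arrays, lists a single accession and no RefSeq mRNA. That accession is listed on 18 rows, of which 16 also carry the symbol of the ribosomal protein gene Rpl17, at mean levels of 11.62 to 13.37. The second Hk1 row lists the RefSeq mRNAs of the gene and is far dimmer, at 8.92 and 8.87 in control cells, 9.02 and 8.97 under siRNA 1, and 9.04 and 8.98 with siRNA 2. For both siRNAs the log2 difference was -0.12 (standard error 0.103, limma adjusted p = 0.758) on the brightest row and 0.11 on the RefSeq row, so the sign for Hk1 depends on the row. For the other members with several rows, the signs for both siRNAs were equal across rows for Bnip3l (-0.05 on each), Higd1a (-0.15 and -0.05), Pgk1 (0.07 on each) and Pkm (-0.07 and -0.11). They differed for Bnip3 (0.05 and -0.05) and Pgam1 (0.02, -0.01 and -0.01), all near 0. The last 2 Pgam1 rows hold equal values to 2 decimals, and so do 2 of the 3 Pgk1 rows.

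Among the other HIF targets, Vegfa and Ddit4 gave the clearest differences shared by both siRNAs. Vegfa, the angiogenic growth factor, stood at 8.92 and 8.94 in control cells, at 8.49 and 8.61 under siRNA 1, and at 8.48 and 8.55 with siRNA 2. All 4 siRNA arrays were lower than the controls, by 1.3-fold with siRNA 1 and 1.34-fold with siRNA 2. For both siRNAs the log2 difference was -0.40 (standard error 0.0725, 95% interval -0.57 to -0.23), with a limma adjusted p of 0.186, and 0.0632 with the replicate block. Ddit4 (REDD1), an inhibitor of mTORC1 that HIF-1 induces, stood at 10.32 and 10.22 in control cells, at 10.67 and 10.53 under siRNA 1, and at 10.71 and 10.46 with siRNA 2 (0.32, standard error 0.0969, limma adjusted p = 0.399, and 0.0964 with the block). Adm, the vasodilator peptide adrenomedullin, read 6.57 and 6.62, then 6.82 on both siRNA 1 arrays, then 6.97 and 6.77 (0.25, standard error 0.0795, adjusted p = 0.438). Adm is dim, with a mean level of 6.76 that is under the median gene level of 7.81. With either siRNA these targets of one pathway read on opposite sides of control, Vegfa below and Ddit4 and Adm above, but none passed the test. Between the siRNAs they differed by -0.04 for Vegfa (95% interval -0.23 to 0.16), -0.02 for Ddit4 (-0.28 to 0.25) and 0.05 for Adm (-0.17 to 0.27).

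**Figure D1:**
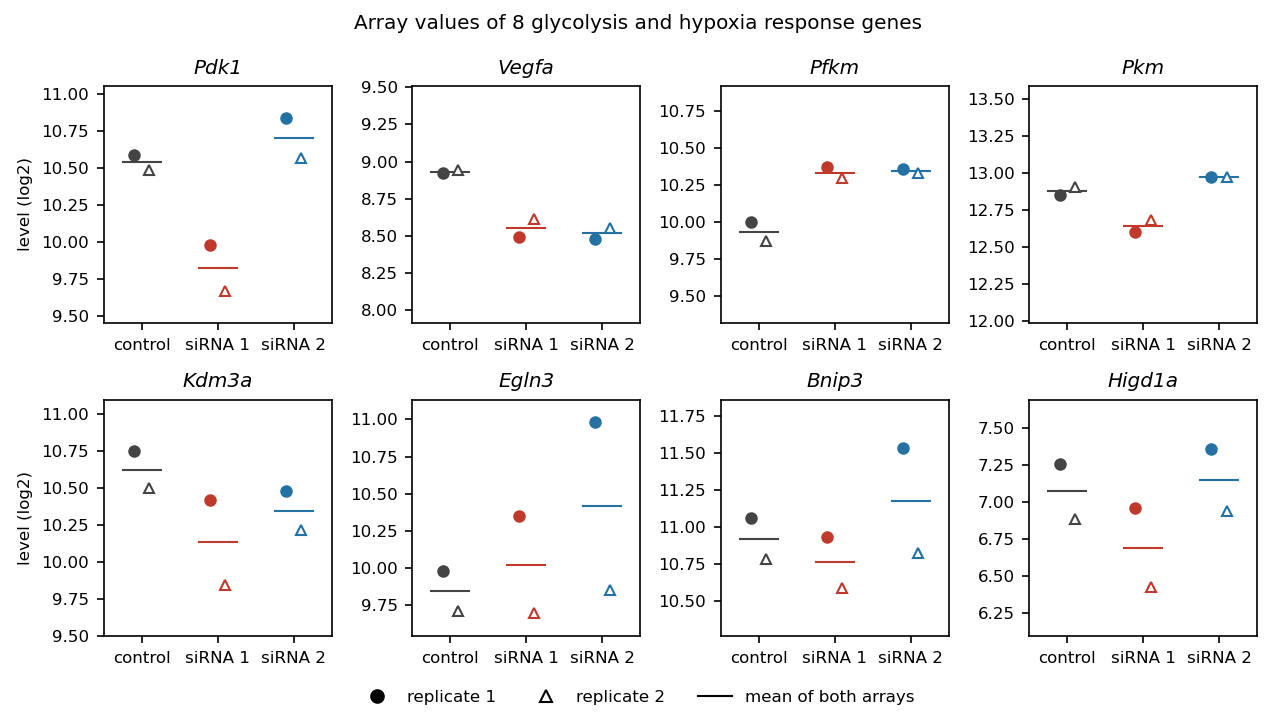
Level (log2) of 8 members on each of the 6 arrays, with filled circles for replicate 1, open triangles for replicate 2 and a line for the mean of both; each panel spans the same range of log2 units around its own centre. Vegfa and Pfkm separate both siRNAs from control, Pdk1 and Pkm separate siRNA 1 from siRNA 2, and in the lower row replicate 1 lies above replicate 2 in every group.

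Pdk1 was the member that differed most between the siRNAs. It encodes pyruvate dehydrogenase kinase 1, which shuts off pyruvate entry into the citric acid cycle and is a known HIF-1 target. It stood at 10.59 and 10.49 in control cells, at 9.98 and 9.67 under siRNA 1, and at 10.84 and 10.57 with siRNA 2. Both siRNA 1 arrays lay below every other array, while 1 siRNA 2 array lay above both controls and the other between them. For both siRNAs together the log2 difference was -0.27 (standard error 0.118, limma adjusted p = 0.578). With siRNA 1 the log2 difference from control was -0.71 (1.64-fold lower, standard error 0.137), with a limma adjusted p of 0.162 that became 0.029 with the replicate block; with siRNA 2 it was 0.17 (95% interval -0.16 to 0.49, adjusted p = 0.999). Tested directly, siRNA 2 lay above siRNA 1 by 0.88 (1.84-fold, 95% interval 0.56 to 1.20), with a limma adjusted p of 0.31, and 0.0479 with the block. Leaving out any 1 array kept the siRNA 1 difference between -0.87 and -0.56, with an adjusted p of 0.0433 without siRNA 1 replicate 1 and up to 0.995 without others; the lone array left in a group is then assumed to vary like the other groups. With the block, 0.963% of all genes were called lower and 0.246% higher for siRNA 1 against control, and Pdk1 was the only member among them. Between the siRNAs the block called 0.0702% of all genes higher and 0.00502% lower with siRNA 2, again with Pdk1 as the only member. For both siRNAs together it called 0.311% lower and 0.0301% higher, and for siRNA 2 against control 0.11% and 0.0201%, with no member among them. Ncoa3 itself differed between the siRNAs by -0.00 (95% interval -0.27 to 0.26). HIF binds ACGTG and GCGTG, and the RefSeq promoter window of Pdk1 (GRCm38.p6) is shown because Pdk1 is the member that passed with the replicate block; matches of these letters on either strand are in capitals:
Pdk1 (chr2:71872974-71873273, plus strand): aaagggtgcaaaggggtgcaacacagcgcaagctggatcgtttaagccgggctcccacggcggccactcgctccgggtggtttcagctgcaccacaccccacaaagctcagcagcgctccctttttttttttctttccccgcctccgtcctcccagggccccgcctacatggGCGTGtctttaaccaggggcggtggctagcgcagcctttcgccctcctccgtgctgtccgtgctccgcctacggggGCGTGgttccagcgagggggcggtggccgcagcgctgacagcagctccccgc

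The comparisons of siRNA 1 and of siRNA 2 with control share the control arrays. Over the members, the values ran from -0.71 to 0.40 with siRNA 1 and from -0.42 (Vegfa) to 0.57 (Egln3) with siRNA 2. The median of the members was -0.08 with siRNA 1 (-0.00 after quantile normalization) and 0.04 with siRNA 2, beside 0.02 and -0.01 for all genes. With siRNA 1, 21 of 31 members lay below control, 11 of them with both arrays under both controls and 5 with both above; such orders held for 20.5% and 22.9% of all genes, and 44.5% of all genes lay below control. With siRNA 2, 12 lay below control and 19 above (all genes 52.8% below), 4 and 6 of them without overlap, against 19.8% and 16% of all genes. No member was called with either siRNA in limma without the block, against 0.0702% of all genes called lower with siRNA 1 and 0% with siRNA 2. With siRNA 2 the target Ncoa3 itself was not called, at a log2 change of -1.49 and a limma adjusted p of 0.0742. The lack of calls with siRNA 2 therefore does not show that members did not change. The counts at an unadjusted p under 0.05 were 10 members with siRNA 1 and 5 with siRNA 2, against 12.1% and 5.25% of all genes.

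Between the siRNAs the set leaned one way. siRNA 2 read above siRNA 1 for 26 of 31 members, and for 11 of 11 glycolytic enzymes, against 41.9% of all genes. Without Hk1 these counts were 25 of 30 members and 10 of 10 enzymes. The arrays did not overlap for 9 members higher and 2 lower with siRNA 2, against 15.2% and 20% of all genes. In limma no member passed here, against 0% of all genes called in either direction, and 6 members had an unadjusted p under 0.05 (6.9% of all genes). Pkm, the pyruvate kinase, stood at 12.85 and 12.90 in control cells, at 12.60 and 12.68 under siRNA 1, and at 12.97 on both siRNA 2 arrays, so the siRNAs lay on opposite sides of control. It was 0.33 higher with siRNA 2 than with siRNA 1 (1.26-fold, 95% interval 0.15 to 0.52, limma adjusted p = 0.481, and 0.171 with the block). Its second row gave 0.40. Slc2a1, the glucose transporter GLUT1, stood at 13.64 and 13.63 in control cells, at 13.36 and 13.40 under siRNA 1, and at 13.64 and 13.58 with siRNA 2 (0.23 between the siRNAs, standard error 0.0764, adjusted p = 0.689). Slc16a3, the lactate exporter MCT4, read 11.16 and 11.07, then 10.99 and 10.76, then 11.41 and 11.15 (0.40, standard error 0.121, adjusted p = 0.633). These 3 genes were singled out after their values were seen; of their neighbours in the pathway, Slc2a3 differed between the siRNAs by 0.08 and Ldha by 0.04.

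The count differed with the arrays and the normalization used. Of the 4985 genes above the 75th percentile of level, 61.7% read higher with siRNA 2 than with siRNA 1, where 22 of the 24 members at such levels did; between the 25th and 50th percentile 26.6% of genes did, and 3 of 3 members. Without siRNA 1 replicate 2 the count was 21 of 31 members and 7 of 11 enzymes, beside 49.9% of all genes. Without siRNA 2 replicate 1 it was 19 members and 6 enzymes, beside 47.1% of all genes. After quantile normalization it was 20 members and 7 enzymes, beside 41.5%. With the array medians aligned it rose to 28 of 31 members, and the share of all genes rose to 54.2%. Among genes above the median level on at least 2 arrays it was 23 of 28 members, beside 56.7% of such genes. For Pdk1 the difference between the siRNAs was 0.72 to 1.04 over the fits that each omitted an array.

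**Figure D2:**
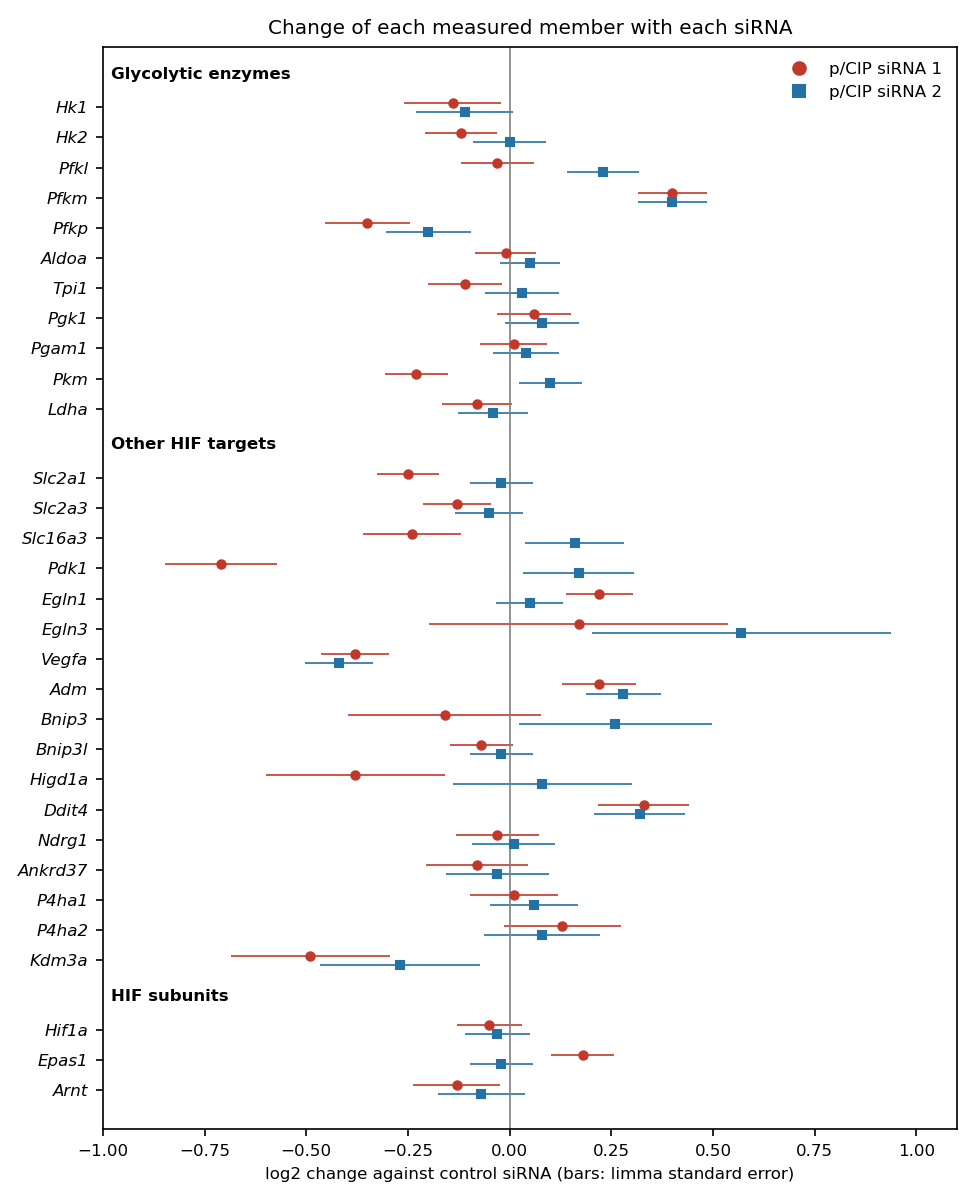
Log2 change of each measured member against control siRNA (horizontal axis) for p/CIP siRNA 1 (circles) and siRNA 2 (squares), grouped by role, with limma's standard error as bars. Pfkm, Ddit4 and Vegfa have nearly equal changes with both siRNAs, whereas Pdk1 reads -0.71 with siRNA 1 and 0.17 with siRNA 2.

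The HIF subunits and the oxygen sensors did not pass the test either. Hif1a read 11.64 to 11.76 over the 6 arrays, with a log2 difference of -0.04 for both siRNAs (standard error 0.0697, 95% interval -0.20 to 0.13, limma adjusted p = 0.887). Arnt, its partner, read 11.48 to 11.80 (-0.10, standard error 0.0931, 95% interval -0.32 to 0.12, limma adjusted p = 0.772). Epas1 stood at 11.61 and 11.66 in control cells, at 11.82 and 11.81 under siRNA 1, and at 11.58 and 11.65 with siRNA 2. Only siRNA 1 lay above the controls there (0.08 for both siRNAs, standard error 0.0668, limma adjusted p = 0.748; 0.18 with siRNA 1, standard error 0.0772, limma adjusted p = 0.414). Egln1 (PHD2), the main HIF prolyl hydroxylase, had a like order, at 8.79 and 8.72, then 9.00 and 8.95, then 8.86 and 8.75 (0.22 with siRNA 1, standard error 0.0823, adjusted p = 0.374).

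Some HIF targets differed more between the arrays of one group than between the groups. Egln3 (PHD3), a prolyl hydroxylase that HIF itself induces, stood at 9.98 and 9.71 in control cells (replicates 1 and 2), at 10.35 and 9.69 under siRNA 1, and at 10.98 and 9.85 with siRNA 2. Replicate 1 was the higher array in every group, and the drop of 1.13 log2 units between the siRNA 2 arrays was the largest of all 19938 genes. Bnip3, a mitophagy receptor, read 11.06 and 10.78, then 10.93 and 10.59, then 11.53 and 10.82, and its siRNA 2 difference of -0.71 ranked 5 among all genes. Its second row read 10.12 and 9.91, then 9.96 and 9.48, then 10.58 and 9.86, in the same order. Higd1a, a small mitochondrial protein induced by hypoxia, read 7.26 and 6.89, then 6.96 and 6.43, then 7.36 and 6.94; its second row differed less, at 6.99 and 6.80, 6.87 and 6.61, and 6.97 and 6.91. Kdm3a, a histone H3 lysine demethylase and HIF target, read 10.75 and 10.50, then 10.42 and 9.85, then 10.48 and 10.22. These 4 members were among the 5% of genes lowest in replicate 2 relative to replicate 1 in all 3 groups, a place held by 115 genes, or 0.577% of all. They were picked here by that share, so the count is a description.

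These HIF targets had wide errors in the comparisons between groups without the replicate block. For Egln3, the difference of both siRNAs from control was 0.37 with a 95% interval of -0.39 to 1.13, and for Bnip3 0.05 (-0.44 to 0.54). For Higd1a it was -0.15 (-0.60 to 0.30). Higd1a was -0.38 with siRNA 1 against control (limma adjusted p = 0.491, and 0.0686 with the block) and 0.46 higher with siRNA 2 than siRNA 1 (0.734, and 0.133 with the block). Its second row gave smaller differences, -0.15 and 0.20, and both Higd1a rows are dim, at mean levels of 6.97 and 6.86. Kdm3a was lower than both controls on all 4 siRNA arrays (-0.38, -0.78 to 0.02, limma adjusted p = 0.586, and 0.118 with the block).

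Across the set, replicate 2 read lower than replicate 1 for 22 of 31 members with control siRNA, 20 with siRNA 1 and 25 with siRNA 2. For 15 members, 8 of them other HIF targets and 6 enzymes, this held in all 3 groups, against 21.4% of all genes. The median difference of the other HIF targets was -0.08, -0.04 and -0.23 in the 3 groups, and that of the enzymes -0.03, -0.07 and -0.14, beside -0.01, 0.04 and 0.03 for all genes. Bright genes leaned the same way: above the 75th percentile of level, 69.2%, 64.5% and 56.4% of genes read lower in replicate 2. Some HIF targets did not follow. Vegfa read slightly higher in replicate 2 in every group (0.02, 0.12 and 0.08), and so did P4ha2 (0.05, 0.38 and 0.23), a collagen prolyl hydroxylase. Hif1a itself differed by -0.03, -0.09 and 0.07. The labels give no date, batch or culture for a replicate number, so what separates the replicates was not tested.

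**Figure D3:**
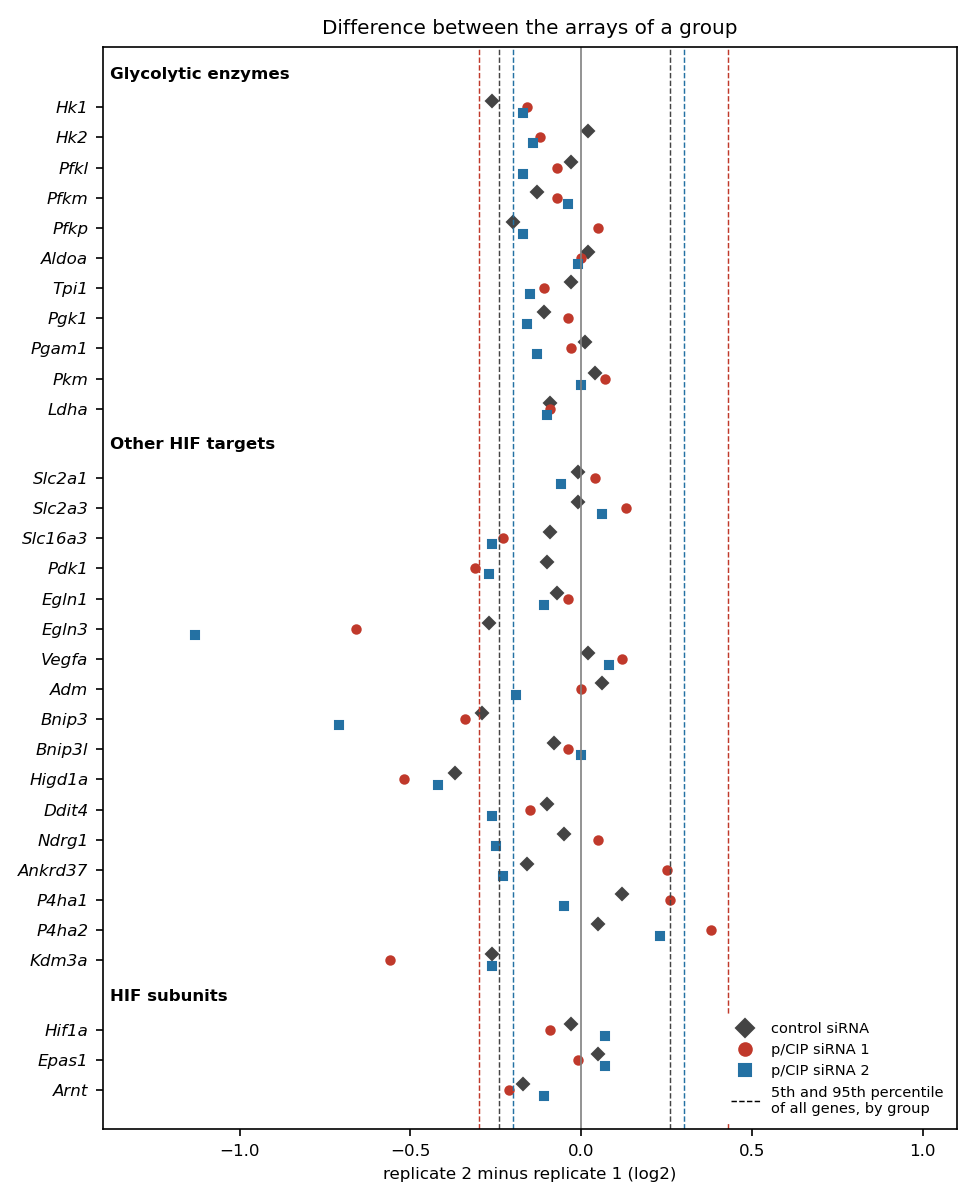
Replicate 2 minus replicate 1 (log2) for each measured member within control siRNA (diamonds), siRNA 1 (circles) and siRNA 2 (squares), with dashed lines at the 5th and 95th percentile of all genes in the group's colour. Egln3, Bnip3, Higd1a and Kdm3a lie left of the lower lines in each group, with Egln3 at -1.13 in siRNA 2, while the glycolytic enzymes lie between -0.26 and 0.07.

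The promoters of the 4 genes that differed most between replicates are printed to show where the HIF motifs ACGTG and GCGTG lie. Windows ran from 250 bases before to 50 bases after each RefSeq start site (GRCm38.p6), both strands were searched, matches are in capitals, and CACGTG holds 2 overlapping matches of ACGTG. Kdm3a has 3 windows and Pdk1 has 2, of which the first is shown.
Egln3 (chr12:54203825-54204124, minus strand): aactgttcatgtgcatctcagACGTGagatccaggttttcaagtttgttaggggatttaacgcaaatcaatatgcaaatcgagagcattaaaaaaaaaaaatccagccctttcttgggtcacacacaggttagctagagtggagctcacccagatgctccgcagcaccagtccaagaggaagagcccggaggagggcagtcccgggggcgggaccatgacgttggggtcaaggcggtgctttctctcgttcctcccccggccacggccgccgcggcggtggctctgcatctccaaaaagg
Bnip3 (chr7:138909457-138909756, minus strand): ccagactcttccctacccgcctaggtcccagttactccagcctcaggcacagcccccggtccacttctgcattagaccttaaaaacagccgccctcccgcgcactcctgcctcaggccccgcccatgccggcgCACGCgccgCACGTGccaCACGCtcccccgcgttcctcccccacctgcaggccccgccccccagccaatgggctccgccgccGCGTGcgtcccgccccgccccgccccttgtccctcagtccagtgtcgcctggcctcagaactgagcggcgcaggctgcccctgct
Higd1a (chr9:121857747-121858046, minus strand): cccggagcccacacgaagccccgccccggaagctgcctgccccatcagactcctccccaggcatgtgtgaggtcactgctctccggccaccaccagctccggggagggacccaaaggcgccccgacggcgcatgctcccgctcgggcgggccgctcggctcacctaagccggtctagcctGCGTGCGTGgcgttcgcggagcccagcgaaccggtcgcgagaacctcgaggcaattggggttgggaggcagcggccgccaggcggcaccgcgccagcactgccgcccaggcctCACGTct
Kdm3a (chr6:71632868-71633167, minus strand): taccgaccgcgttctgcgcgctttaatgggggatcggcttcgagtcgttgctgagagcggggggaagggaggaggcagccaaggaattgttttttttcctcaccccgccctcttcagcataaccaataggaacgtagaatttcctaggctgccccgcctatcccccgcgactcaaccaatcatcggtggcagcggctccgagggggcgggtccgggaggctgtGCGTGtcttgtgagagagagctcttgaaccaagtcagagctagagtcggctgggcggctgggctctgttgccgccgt

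Bnip3 held 2 matches of ACGTG, which overlap in 1 CACGTG, and 3 of GCGTG, while Egln3 held 1 ACGTG at -229 from the start site. Higd1a held 1 ACGTG and 2 GCGTG, and the windows shown held 1 GCGTG for Kdm3a and 2 GCGTG for Pdk1. The second Pdk1 window and the other Kdm3a windows held 0 matches. The first Vegfa window held 0 matches, and its second start site held 1 of each. Of the 34 members, 30 had a window in the table, Slc2a3, Ndrg1, Bnip3l and Epas1 being the others. At least 1 match lay in a window of 28 of these 30 genes, against 46.7% of 27025 genes, and in 34 of 44 windows (77.3%) against 43.8% of all windows of this length. The members were chosen as glycolysis and HIF genes, so this share describes the choice of genes. A match is a string of letters, and binding was not measured.

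Of 36 further genes of glycolysis and pyruvate handling, 31 were measured, with 0 called in either direction for both siRNAs and a median of -0.04. Those of smallest p were the glycogen synthase Gys1 (-0.21), the fructose bisphosphatase Tigar (-0.27), the sperm-type dehydrogenase Gapdhs (0.33) and Ldhb (-0.16), with limma adjusted p from 0.48 to 0.593. A list of 46 further hypoxia gene symbols shares Pfkfb3 and Pfkfb4 with the first list. Of these 46, 43 were measured, with a median of -0.01 and 0 called. With the replicate block 1 was called lower, where 0.311% of all genes were. That gene was Ak4, a mitochondrial adenylate kinase and HIF target, which stood at 12.38 and 12.19 in control cells, at 11.50 and 11.47 under siRNA 1, and at 11.80 and 11.56 with siRNA 2. All 4 siRNA arrays lay below both controls (-0.70, 1.63-fold lower, standard error 0.0969, limma adjusted p = 0.126, and 0.0265 with the block), a smaller adjusted p than that of any member for both siRNAs. Next came Rcor2, a chromatin corepressor of stem cells (-0.37), the heme oxygenase Hmox1 (0.26) and the cytokine Epo (-0.19), with limma adjusted p from 0.222 to 0.536. Between the siRNAs, 3 further genes, chosen after their values were seen, read higher with siRNA 2. Ero1a, an oxidase of the endoplasmic reticulum, differed by 0.48 (standard error 0.0863, limma adjusted p = 0.376, and 0.141 with the block), with the arrays of the siRNAs on opposite sides of the controls as for Pkm. The same order held for the transcription factor Bhlhe40 (0.35, limma adjusted p = 0.481), and the collagen cross-linking enzyme Lox differed by 0.68 (limma adjusted p = 0.54). Lox, Epo and Gapdhs are dim, with mean levels of 6.65, 6.02 and 6.47, under the median gene level of 7.81.

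The remaining members stayed near control for both siRNAs: Ndrg1 at -0.01, Ankrd37 at -0.06, Bnip3l at -0.05, P4ha1 at 0.04, P4ha2 at 0.10 and the neuronal-type glucose transporter Slc2a3 at -0.09. Of these only Slc2a3 lay without overlap, at 13.30 on both controls and 13.11 to 13.28 on the siRNA arrays.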

How the data were processed

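The authors deposited log2 values, 1 for each of 35556 probe sets on 6 arrays; the submitters' processing notes name Partek, and how probes were corrected for background, summarized and normalized is not stated there. The log base was inferred from the range of 2.69 to 14.6. Symbols came from GEO's platform annotation (21789 rows with 1 symbol, 1621 with several, 12146 not listed), and the brightest row stood for each of 19938 genes. limma 3.58.1 in R 4.3.3 fitted the 3 groups together (lmFit, eBayes, no filter, 3 residual and 3.84 prior degrees of freedom). Tests were two-sided with Benjamini-Hochberg adjustment over all genes, called under 0.05, and the script was tested on simulated data. The number of arrays limits the precision.

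Deviations of same-numbered arrays from their group means correlated at 0.464, 0.407 and 0.461. The replicate number was therefore taken to pair arrays, from these same data and not the labels. With 2 arrays per group this is weak ground for pairing, and calls made only with the block rest on it. Replicate 2 also had the narrower interquartile range in control (3.35 against 3.45), siRNA 1 (3.13 against 3.36) and siRNA 2 (3.33 against 3.40). Its part in the correlations was not tested. The blocked adjusted p is given where it changes a call and for some other members. Members and lists were chosen with earlier results of these data known. All members are named, with full statistics for the 4 of smallest p per role; Pkm, Kdm3a, Egln3, Bnip3, Higd1a, Slc2a1, Slc16a3, Egln1 and further ones were described after their values were seen, and from 2 lists of other pathway genes the 4 of smallest p are named. Promoter sequences are RefSeq's. Alternatives were the block, each array left out, other normalizations, a filter on dim genes, other row choices, other variance priors and fits of only the groups compared.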

Additional observations from a re-analysis of the deposited data

Results flagged for a closer look

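Pdk1 was 0.88 higher with siRNA 2 than with siRNA 1 on the log2 scale, a difference between the siRNAs that passed limma's test with the replicate block (adjusted p = 0.0479) and not without it (0.31). Pkm was 0.33 higher with siRNA 2 than with siRNA 1, with both siRNA 1 arrays below and both siRNA 2 arrays above the control arrays. That order held for 502 genes, or 2.52% of all, and limma's test of the Pkm difference did not pass (adjusted p = 0.481, and 0.171 with the block). No group has enough arrays for a search for single outlying arrays.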

How the results depend on the processing

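Of 1941 recomputed values of single members, 1835 kept their direction and their side of the threshold, 101 changed sign with neither value past it, and 5 passed only in an alternative. With the replicate block (pairing by replicate number), 1 member was called for siRNA 1 against control and 1 for siRNA 2 against siRNA 1, in both cases Pdk1. The trend and robust options called 2 members for siRNA 1, Pdk1 (adjusted p = 0.0465) and Slc2a1 (0.0396). With an array left out, which leaves a group with a lone array assumed to vary like the others, members called for siRNA 1 ranged from 0 to 1. The block changed no other member call. After quantile normalization the siRNA 1 median was 0.00 for enzymes, -0.00 for all members and 0.01 for HIF subunits, from -0.08, -0.08 and -0.05, and 7 enzymes read higher with siRNA 2 than siRNA 1, in place of 11. With each array left out, that count ranged from 6 to 11, and the siRNA 2 against siRNA 1 median from 0.06 to 0.17 for other HIF targets, -0.04 to 0.07 for HIF subunits and 0.05 to 0.12 for all members. The median of other HIF targets ranged from -0.02 to 0.10 for siRNA 2 and from -0.08 to 0.03 for both siRNAs. Preferring rows with a RefSeq mRNA, an alternative chosen after seeing the data, as were the counts of members higher with siRNA 2, left 0 members called and 14 genes called lower for both siRNAs. Over all genes, 14 were called lower and 0 higher for both siRNAs and for siRNA 1, and 0 for siRNA 2 and between the siRNAs. With the block these became 62 and 6, 192 and 49, 22 and 4, and 1 and 14; with trend and robust options 57 and 14, 127 and 23, 15 and 2, and 1 and 22; with the filter on dim genes 35 and 6, 70 and 10, 11 and 1, and 0 and 1. Testing every row, or an unmoderated model, gave 0 in each. The lower calls ranged from 0 to 34 for both siRNAs and from 0 to 248 for siRNA 1 with an array left out, with 0 for both on leaving out any single control or siRNA 2 array, and 34 and 248 without siRNA 1 replicate 1; the cause was not tested.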
